A study of Mus musculus with 2 samples.

Results

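The genes described here encode RNA-binding proteins that choose which exons of a transcript are joined. A gene was a member when the name printed for its probe began with Srsf, Hnrnp, Sf3a, Sf3b, U2af, Rbfox, Celf, Mbnl or Ptbp, or was Tra2a, Tra2b, Esrp1 or Esrp2. The array carried 63 such genes among 37003 gene names, measured by 161 of 56597 probes. The name rule used no expression value, but it was set with earlier results of these data known. By role, 13 genes were SR or Tra2 genes, 21 were hnRNP genes, 12 belonged to the SF3 and U2AF group, and 17 were regulators of the Esrp, Rbfox, Celf, Mbnl and Ptbp families.

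Epithelial cells were isolated with magnetic beads against EpCAM (CD326), an adhesion molecule of epithelial cells, out of submandibular glands. The mice were female C57BL/6 (C57BL/6N in the methods), and RNA from animals aged 9 weeks (young) and 24 months (aged) was labelled with Cy3 and hybridised to 1 Agilent array each, on the same slide. A single array stood for each age, so differences are described by their size and have no p-value or replicate error. Neither group carried a transgene, mutation or treatment in the labels. According to the methods, young mice came from a vendor and aged mice from an institute's own facility, so age and source cannot be told apart, and the bead sort was not fully pure.

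SR proteins bind exonic enhancers and help the spliceosome to recognise the exon, whereas hnRNPs coat nascent RNA and often oppose exon inclusion. U2AF reads the end of the intron, and the SF3A and SF3B complexes then anchor the U2 snRNP at the branch point. Esrp proteins set the epithelial splicing program, while Rbfox, Celf, Mbnl and Ptbp proteins are best known from muscle and nerve, where they switch exons with development.

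For each probe the signal was divided by the 75th percentile of its own array, 256 for young mice and 198 for aged mice, and the log2 of this ratio is called the level. The brightest probe stood for its gene, and levels of different probes are not compared, since probes differ in their yield. The error given after ± is the one that the scanner software assigned to the 2 signals of a probe, carried over to their log2 difference. It is no error between mice. Among 293 probes printed at 5 or more spots, the difference between the ages varied over the spots with a median SD of 0.033, which covers only the printing and scanning of these arrays.

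Splicing factor genes were expressed at both ages and differed little between them. Of the 63 genes, 58 (92.1%) were well above background, a mark set by the scanner software, and each of these 58 was so at both ages, whereas only 57.7% of all gene names reached this for at least 1 age. Those without a measurable level at either age (5 genes, not well above background) were Srsf12, Rbfox1, Rbfox3, Celf5 and Celf6. None of the 58 measured genes differed by 2-fold, the threshold of the study's methods. Of the 18745 genes measured at both ages, 4.56% did so, 1.52% higher and 3.05% lower in aged mice, and of all 21346 genes kept at either age, bounds included, 7.67% did so, 2.53% higher and 5.14% lower. With the lower threshold of 1.5-fold the count was also 0 of 58, against 21.0% of all kept genes, 10.7% higher and 10.3% lower. Fewer cells of a type and less RNA per cell cannot be told apart in such bulk samples.

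The differences ran from -0.57 for Mbnl1, a level 1.49-fold lower on the aged array, to 0.52 for Srsf2, a level 1.44-fold higher. Their median of 0.11 lay close to the median of 0.094 over all 18745 genes measured on both arrays. Of the 58 members, 41 had a difference above 0 (70.7%), as did 59.9% of all genes. The interquartile range was -0.070 to 0.26 for the members and -0.17 to 0.34 for all genes. Only 4 members were higher by over 2 software errors (6.90%, against 17.4% of all genes), namely Srsf2, Srsf6, Srsf3 and Sf3b5, and 1 was lower (1.72%, against 10.6%), namely Mbnl1. The zero of these differences depended on the scaling. Centring on the array median raised every difference by 0.17, and equalising the spike-in controls, RNA added in the laboratory at labelling, lowered it by 0.25, so that 50 and 15 of the 58 members, respectively, lay above 0. The split of all genes called at 2-fold moved with it, from 539 higher and 1098 lower (32.9% higher) to 802 and 867 (48.1%) after median centring and to 350 and 1612 (17.8%) with the spike-in controls. Over the 7 scalings tried, 20 members kept 1 sign, 13 of them higher and 7 lower on the aged array, and 38 changed sign. Median centring and the spike-in controls add 1 constant to every difference, so keeping 1 sign largely restates the size of a difference. The share of all genes that kept 1 sign was not computed. No member passed 2-fold under any of the 7. The absence of members at 1.5-fold held only with the 75th percentile of all non-control spots and with the normexp background correction. Mbnl1 reached -0.83 with the spike-in controls. The lowest member was also beyond 1.5-fold at -0.67 with the 75th percentile over probes measured on both arrays. It stood at -0.66 with loess and -0.61 with quantile normalisation. With median centring Srsf2 and Srsf6 reached 0.70 each, and Sf3b5 and Srsf3 reached 0.63 each. The share of all genes beyond 1.5-fold was not recomputed under those scalings.

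**Figure D1:**
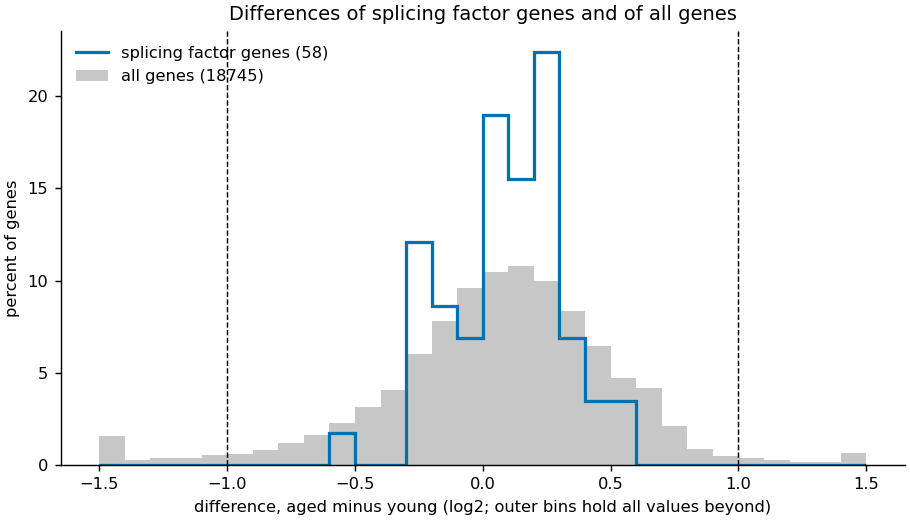
Share of genes (vertical axis, percent) in bins of 0.1 of the difference between the aged and the young array (horizontal axis, log2), for the 58 splicing factor genes (line) and all 18745 genes measured on both arrays (grey bars). Dashed lines mark 2-fold, and the outer bins hold all values beyond; every splicing factor gene lay between -0.57 and 0.52, with the zero set by the 75th percentile of each array.

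**Figure D2:**
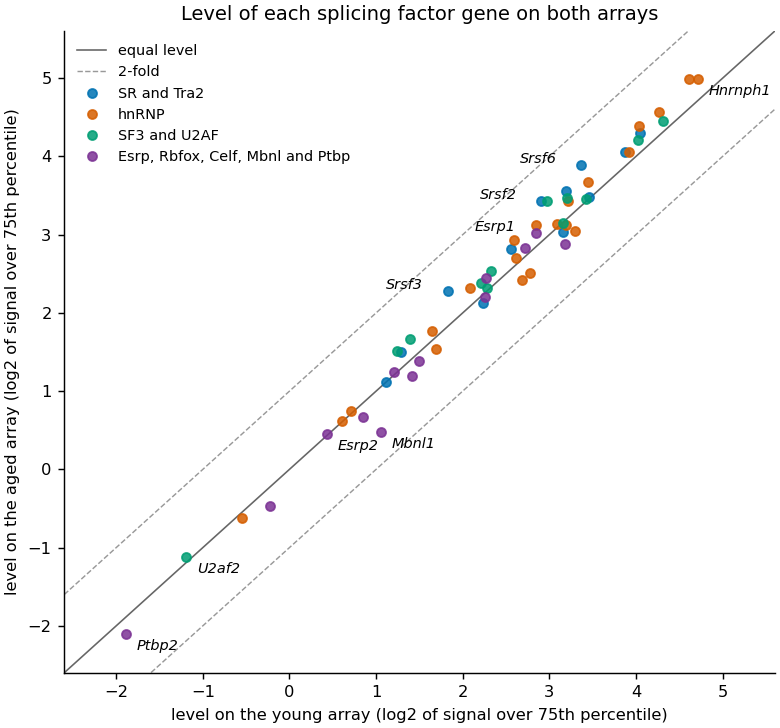
Level of the brightest probe of each of the 58 genes on the young array (horizontal axis) and the aged array (vertical axis), both as log2 of signal over the array's 75th percentile, coloured by group. All points lie between the dashed lines of 2-fold; Srsf2, Srsf3 and Srsf6 are above and Mbnl1 is below the line of equal level.

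SR and Tra2 genes had the highest median difference of the 4 groups with the 75th percentile, 0.23 over 12 measured genes, 10 of which lay above 0. Set against the median of all genes under the same scaling, the group stood at 0.14, but at only -0.0016 with quantile normalisation, 0.045 with loess and 0.049 with the normexp background correction, and its own median ranged from -0.025 with the spike-in controls to 0.40 with median centring. The group is therefore not set apart from the bulk of genes under every scaling.

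Srsf2, an SR protein that acts at many exonic enhancers, had a signal of 1924 in young mice and 2136 in aged mice. Its level was 2.91 in young mice and 3.43 in aged mice, a difference of 0.52 ± 0.20, with a range of 0.27 to 0.70 over the scalings. A second, dim Srsf2 probe with signals of 21.5 and 17.3 differed by 0.058 ± 0.40. Srsf6, a close relative of Srsf4 and Srsf5, had a signal of 2650 and 2937 and levels of 3.37 and 3.89, a difference of 0.52 ± 0.20, with 0.40 ± 0.20 at its other probe. Srsf3, the smallest SR protein, had signals of 908 and 960 and levels of 1.83 and 2.28, a difference of 0.45 ± 0.20. The upstream Srsf3 probe gave 0.69 ± 0.20, or 1.61-fold, the highest difference of all 132 kept member probes apart from the Celf2 bound given below. These 3 genes were the highest among the SR genes, and all kept 1 sign over the 7 scalings.

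The bright probes behind these values are shown by their first 30 of 60 bases, 5′ to 3′, because they are what the 3 largest SR differences rest on. The coordinates are those of the files (mm9, NCBI37); the files give no exon map.
Srsf2 (chr11:116711211-116711237, minus strand, coordinates that cover only 27 of the 60 bases of the probe and may not match the bases printed): gtccagtttattaaaatgcctgacaactgc
Srsf3 (chr17:29178485-29178544, plus strand): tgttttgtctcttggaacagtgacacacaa
Srsf6 (chr2:162760856-162760915, plus strand): caggctttagagggagaacccaaattttca

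Tra2a and Tra2b, which bind purine-rich enhancers and resemble SR proteins, had levels of 3.19 and 4.04 in young mice and 3.56 and 4.30 in aged mice, differences of 0.37 and 0.26. All 3 Tra2a probes (0.19 to 0.37) and both kept Tra2b probes (0.090 and 0.26) lay above 0. Tra2a kept its sign over the scalings and Tra2b did not.

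Of the remaining SR genes, Srsf11 differed by 0.25, Srsf1, the founding member of the family, by 0.21, and Srsf9 by 0.18. Srsf5 and Srsf4 stood at 0.027 and 0.0042, and Srsf10, which acts as a repressor when dephosphorylated, and Srsf7, which carries a zinc knuckle, at -0.11 each. None of these 7 genes kept 1 sign over the scalings. Their levels in young and aged mice were 2.56 and 2.81 for Srsf11, 3.88 and 4.06 for Srsf9, 3.46 and 3.48 for Srsf5, 1.11 and 1.12 for Srsf4, 2.23 and 2.13 for Srsf10, and 3.15 and 3.04 for Srsf7, and the signals of Srsf1 were 626 and 558. Probes of the same gene could disagree in direction, since 1 Srsf10 probe gave 0.38 beside -0.11 and -0.21, and the 6 Srsf11 probes ran from -0.25 to 0.38.

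Srsf5 was the only member with a probe inside a stretch that another of its probes skipped. One 60-base probe covers chr12:82047706-82048355 on the plus strand (mm9), 650 bases of genome, so that it reads bases from both ends of that stretch, and a second lies within the skipped stretch at chr12:82047730-82047789. The pair shares no run of 10 bases. Both are printed in full because their positions differ in this way. With no exon map, which RNA the inside probe reads is not known.
Srsf5 spanning probe: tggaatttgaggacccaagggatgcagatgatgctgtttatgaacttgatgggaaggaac
Srsf5 probe inside the stretch: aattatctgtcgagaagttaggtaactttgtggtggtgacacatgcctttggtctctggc
The spanning probe had signals of 1455 and 924 and differed by -0.28 ± 0.20, and the inside probe had signals of 2069 and 1410 and differed by -0.18 ± 0.20. The inside probe thus stood 0.10 above the spanning probe, less than the software error of either. Among all 42 such pairs of the array with both probes measured, this value had a median of -0.073 and quartiles of -0.44 and 0.075.

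The hnRNP genes centred on the bulk of genes. Their median difference was 0.12 over 21 measured genes, 15 of them above 0, with a range of -0.26 to 0.38, and set against all genes it stood at 0.026, but at -0.069 with quantile normalisation, -0.044 with loess and -0.033 with the normexp correction. Over the scalings the group median ran from -0.13 to 0.30.

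Hnrnpa3, a relative of Hnrnpa1, had the highest difference of the group, 0.38 ± 0.20, with signals of 6245 and 6276 and levels of 4.61 and 4.99. Its other probes gave 0.29 and 0.32. Hnrnph1, which binds runs of G, had signals of 6729 and 6283 and levels of 4.72 and 4.99, a difference of 0.27 ± 0.20 at its single probe. Hnrnpab, Hnrnpa1 and Hnrnpdl followed with 0.35, 0.34 and 0.30, and Hnrnph3 with 0.27. Hnrnpa1, the classic splicing repressor, has near-identical copies in the genome, such as the pseudogene Hnrnpa1l2-ps2 that the array lists separately with a difference of 0.014, so its 3 probes (0.11 to 0.34) may share signal with such copies. Over the scalings Hnrnpa1, Hnrnpa3, Hnrnpab, Hnrnpdl and Hnrnph3 kept a positive sign, whereas Hnrnph1, Hnrnph2, Hnrnpc and Hnrnpa2b1 did not.

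At the lower end, Hnrnpa0, Hnrnpll and Hnrnpl differed by -0.26, -0.26 and -0.25 and kept a negative sign over the scalings. Hnrnpll, which directs CD45 exon skipping in lymphocytes, had signals of 1750 and 1128, and all 4 of its probes were lower on the aged array, from -0.86 to -0.26. Its paralogue Hnrnpl, a binder of CA repeats, had signals of 2517 and 1639, and 3 of its 4 probes were lower, from -0.52 to 0.055. The other genes of the group lay between -0.15 (Hnrnpk) and 0.24 (Hnrnph2).

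The SF3 and U2AF group showed positive values for 11 of its 12 genes, with a median of 0.18 and a range of -0.0099 to 0.46. Set against all genes the median stood at 0.087, at 0.033 with loess, at 0.027 with quantile normalisation and at -0.0045 with the normexp correction, and the group median itself ran from -0.073 to 0.36 over the scalings.

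Sf3b5, a small subunit of SF3B, was highest, with signals of 2015 and 2137 and levels of 2.98 and 3.43, a difference of 0.46 ± 0.20 at its single probe and a range of 0.20 to 0.63 over the scalings. Sf3b6, the subunit next to the branch point adenosine, and Sf3a1 both gave 0.28, and U2af1, the small U2AF subunit that reads the last bases of the intron, gave 0.27. Sf3a1, Sf3b5, Sf3b6 and U2af1 kept 1 sign over the scalings. U2af1l4, a U2af1-like protein, had signals of 5081 and 4327 and levels of 4.31 and 4.45, a difference of 0.14 ± 0.20, with 0.47 at its other probe. Sf3b2 had signals of 4161 and 3670 and levels of 4.02 and 4.21, a difference of 0.19 ± 0.20. U2af2, the large subunit that binds the polypyrimidine tract, gave 0.079, and Sf3b3 and Sf3b4 gave 0.039 and 0.042.

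Sf3b1, the largest SF3B subunit and the one that clamps the branch point, was level between the ages at its brightest probe, with signals of 2280 and 1750, levels of 3.15 and 3.14 and a difference of -0.0099 ± 0.20. Its probes disagreed along the same RefSeq transcript. The probe starting at base 563 gave -0.0091 ± 0.20 with signals of 511 and 392, and the probe starting at base 5922 gave -1.03 ± 0.24 with signals of 97.7 and 36.9, 2.04-fold lower on the aged array and from -1.29 to -0.36 over the scalings. The upstream probe is printed in full and the downstream one by its first 30 bases, because they read the same transcript with different results.
Sf3b1 upstream probe (chr1:55069101-55071370, minus strand, mm9): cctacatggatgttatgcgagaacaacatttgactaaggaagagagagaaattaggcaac
Sf3b1 downstream probe (chr1:55042223-55042282, minus strand, mm9): acacttctcaactaagaccttttctttagc
Over the 21 members with a probe pair on 1 transcript, the downstream probe differed from the upstream one by a median of -0.048, close to -0.033 over all 3544 such transcripts, so that Sf3b1, at -1.02, was the lowest of the 21. The remaining 20 lay between -0.56 for Hnrnpul2 and 0.31 for Srsf5.

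**Figure D3:**
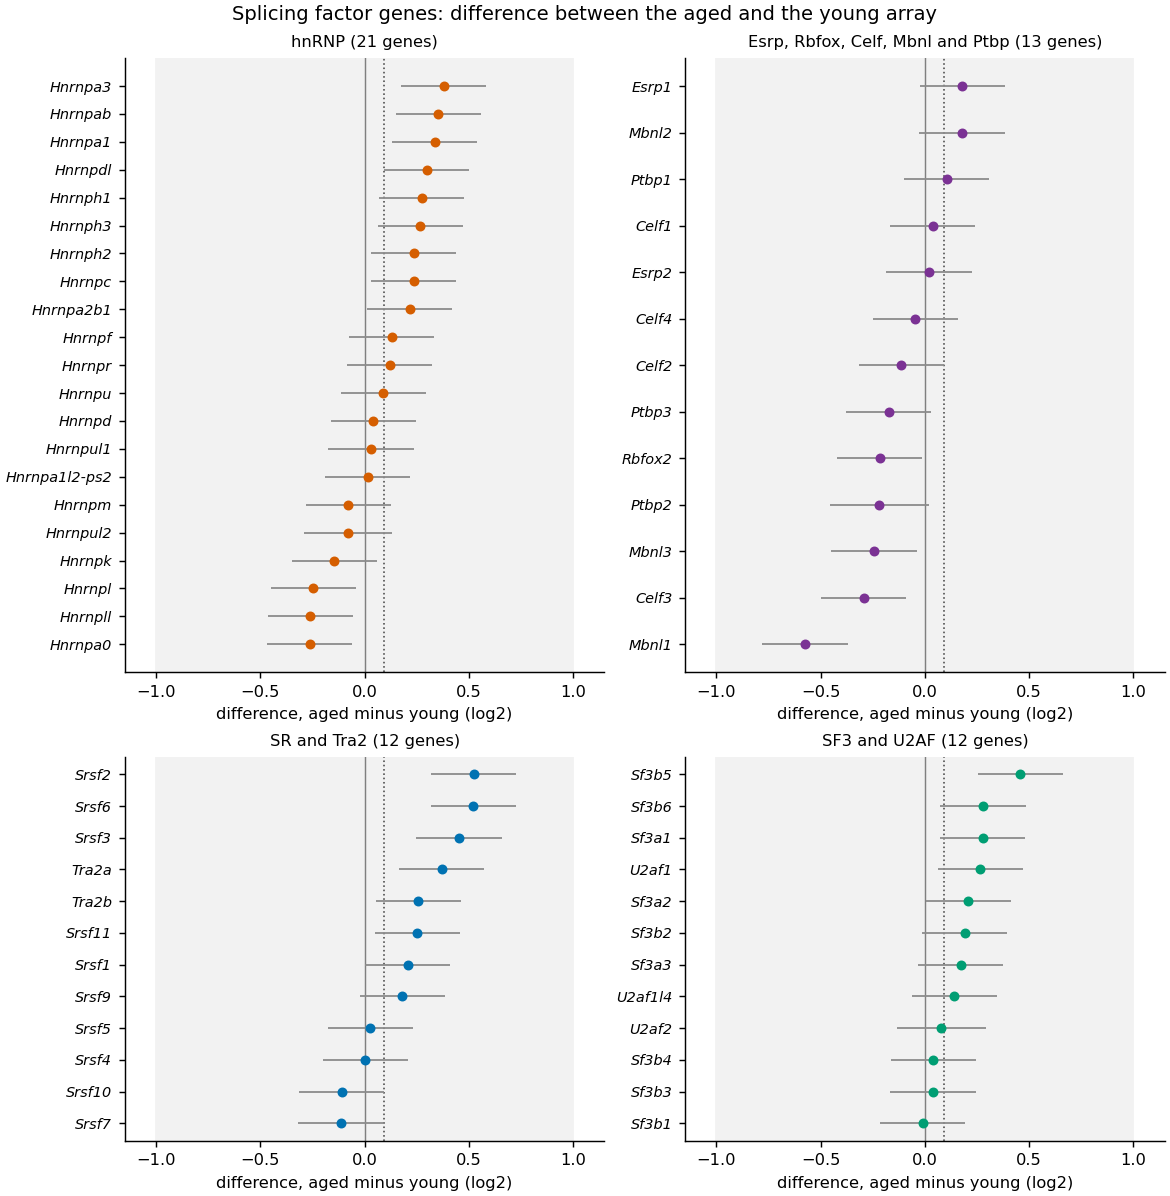
Difference between the aged and the young array (horizontal axis, log2) for the brightest probe of each of the 58 genes, by group; points are single values from 1 array per age, bars are ± 1 software error and the shaded band is 2-fold. The dotted line is the median of all genes, 0.094; all genes lie inside the band, and the zero line moves by 0.17 to the left with median centring and by 0.25 to the right with the spike-in controls.

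The tissue regulators had the lowest median of the 4 groups, -0.11 over 13 measured genes, with 8 of 13 below 0. Against the median of all genes this was -0.21, and between -0.21 and -0.20 under each of the 7 scalings, while the group median itself ranged from -0.37 to 0.061. The offset rested on the choice of the brightest probe, since with the mean of the kept probes of each gene it was -0.037 and the group median 0.0042. As with the other groups, no test was possible.

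Esrp1, the main epithelial splicing regulator, was well expressed in the sorted cells of both ages. Its signal was 1834 in young mice and 1605 in aged mice, its level 2.84 and 3.02, and its difference 0.18 ± 0.20, with 0.21 ± 0.22 at a second probe. Esrp2, its paralogue, had signals of 347 and 271, levels of 0.44 and 0.46 and a difference of 0.020 ± 0.20. Neither Esrp gene kept 1 sign over the scalings, and neither differed between the ages beyond the software error. The Esrp1 probe is shown by its first 30 bases as the marker of epithelial splicing in these cells.
Esrp1 (chr4:11260208-11260267, minus strand, mm9): ctgtgcattcccaatcttctgtctccctgt

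Mbnl1, the muscleblind protein that is sequestered by CUG repeats in myotonic dystrophy, had the largest difference of any member. Its signal was 531 in young mice and 276 in aged mice, its level 1.05 and 0.48, and its difference -0.57 ± 0.20, with a range of -0.83 to -0.40 over the scalings. A second probe with signals of 31.1 and 17.9 gave -0.42 ± 0.36, and another, with 33.3 and 14.1 and not well above background in aged mice, was lower by a factor of at least 1.81. All 3 kept probes were thus lower on the aged array. The brightest is shown by its first 30 bases, as the probe behind the lowest value.
Mbnl1 (chr3:60433015-60433074, plus strand, mm9): cttcagccactaagatgaaatcatggatca
Mbnl3 differed by -0.24 ± 0.21 with signals of 219 and 143. A dimmer probe, not well above background in aged mice, was 1.91-fold lower by its own signals, a difference of -0.94 ± 0.40. Mbnl2 had signals of 1231 and 1076 and gave 0.18 ± 0.20 at its brightest probe and -0.14 ± 0.20 at the other.

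Among the remaining families, Rbfox2, the Rbfox gene of epithelia and many other tissues, had signals of 682 and 453 and differed by -0.22 ± 0.20, with 0.30 ± 0.24 at a dim second probe. Ptbp1, the polypyrimidine tract protein of most non-neural cells, had signals of 1686 and 1401 and gave 0.11, its neural paralogue Ptbp2 had signals of 69.2 and 46.0 and gave -0.22 ± 0.24, and Ptbp3 had signals of 461 and 316 and gave -0.17. Celf1, which binds GU-rich RNA, had signals of 593 and 471 and gave 0.038. Celf4 had signals of 1220 and 913 and gave -0.046. Its other probe, with signals of 13.3 and 17.5, was not well above background at either age. Celf3 had signals of 2316 and 1460 and gave -0.29 ± 0.20 at a probe designed on an Ensembl transcript, while its RefSeq probe had signals of only 21.2 and 20.2 and gave 0.30 ± 0.38. Mbnl1, Mbnl3, Rbfox2 and Celf3 kept a negative sign over the scalings.

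Celf2 differed most between its own probes. The brightest had signals of 722 and 516 and gave -0.11 ± 0.20. Another, designed on an Ensembl transcript and placed further upstream on the gene's strand, had a signal of 345 in young mice and 17.0 in aged mice, not well above background. Its level was 0.43 and -3.54, 15.7-fold lower by its own signals, a difference of -3.97 ± 0.37. This is no lower bound, and the value ran from -4.23 to -1.85 on the log2 scale over the scalings. The remaining kept Celf2 probes were dim, with signals between 11.6 and 38.1, and gave -0.24, 0.22 and, as a bound from the aged array, 0.72. The bright pair is shown by the first 30 bases of each, because 1 gene name stands for both.
Celf2 brightest probe (chr2:6465900-6465959, minus strand, mm9): gttgtgctctcatcacaagtcttaaggtct
Celf2 probe not well above background on the aged array (chr2:6581339-6581398, minus strand, mm9): gcctcataggtacaaagctttgcccagtac

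Across the 43 members with several kept probes, Celf2, Sf3b1 and Sf3a3 had probes that disagreed by over 1 on the log2 scale (6.98%, against 10.5% of all genes with several kept probes), and the median spread was 0.31, close to 0.30 over all genes. Sf3a3, an SF3A subunit, had signals of 1183 and 1029 at its brightest probe and differed by 0.17 ± 0.20. Another Sf3a3 probe, designed on an Ensembl transcript, had signals of 41.5 and 7.64, the latter not well above background, and was lower by a factor of at least 2.25, with the bound between -1.42 and -0.19 over the scalings. The Sf3a3 pair is printed by its first 30 bases for the same reason as the Celf2 pair.
Sf3a3 brightest probe (chr4:124409573-124409632, plus strand, mm9): ctatgtagtatctaccttgtagaaaccttg
Sf3a3 dim probe (chr4:124400459-124400518, plus strand, mm9): gctctgtgactcctgaccaaaatctgatca
Counted by probe, these 3 of the 132 kept member probes were lower by 2-fold (2.27%, against 4.79% of all kept probes), and 0 were higher, against 2.32%.

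**Figure D4:**
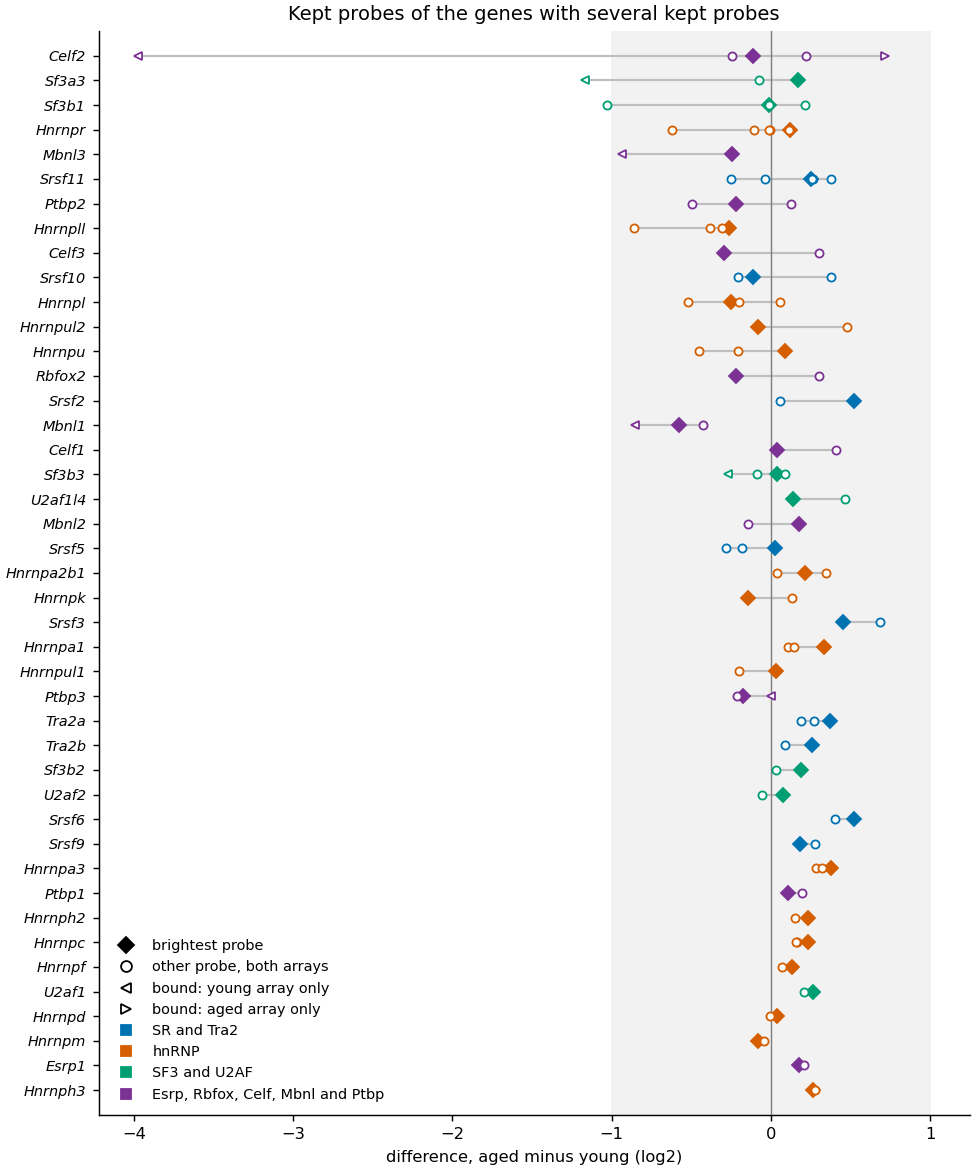
Difference between the aged and the young array (horizontal axis, log2) for every kept probe of the 43 genes with several kept probes. Genes are ordered by their spread. Diamonds are the brightest probe and circles other probes measured on both arrays. Triangles are probes with only 1 array well above background, placed at a bound or by their own signals. The shaded band is 2-fold; outside it lie 1 probe each of Celf2, Sf3a3 and Sf3b1.

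**Figure D5:**
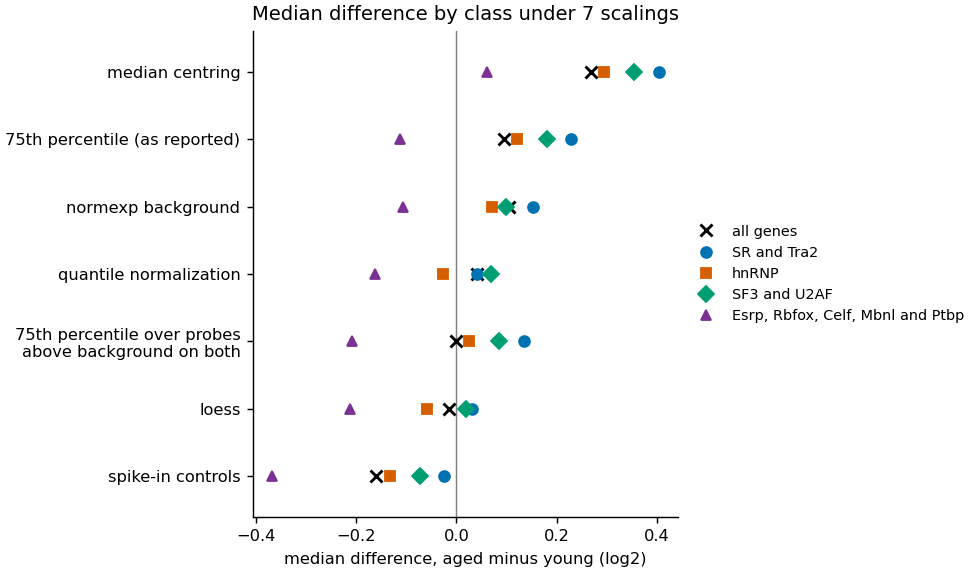
Median difference between the aged and the young array (horizontal axis, log2) of the 4 groups and of all genes under 7 scalings (rows). The medians of all 4 groups change sign between scalings, and the Esrp, Rbfox, Celf, Mbnl and Ptbp genes lie left of all genes in every row, with the brightest probe of each gene.

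From a list of 133 further genes of the spliceosome and its regulators, 126 were measured on both arrays, with a median difference of 0.17, 93 of them above 0. None was higher by 2-fold and only Taf15, an RNA-binding protein of the FET family, was lower, by 3.70-fold, with a level of 0.81 in young mice and -1.08 in aged mice. The medians were 0.27 for 19 snRNP proteins, 0.18 for 40 catalytic and helicase factors, 0.092 for 25 SR kinases and SR-related proteins, 0.27 for 5 exon junction proteins and 0.076 for 37 other regulators. After Taf15, the lowest were Qk, the quaking RNA-binding protein, at -0.82 and Rbmx, an hnRNP G gene outside the name rule, at -0.58. The highest were Bud13, of the complex that retains unspliced RNA, at 0.74 ± 0.28 and Srrm4, a regulator of neural microexons, at 0.62 ± 0.24. Both were dim, with signals of 29.4 and 37.8 for Bud13 and 43.7 and 52.1 for Srrm4. Rbm3, a cold-inducible RNA-binding protein, followed at 0.56 ± 0.20 with signals of 3288 and 3737. With the spike-in controls the median of this list was -0.089.

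Of the 8 epithelial markers on the list, 7 were measured at both ages, including Epcam at levels of 2.79 and 2.99, and Krt19 was well above background in young mice only, lower by a factor of at least 1.85 in aged mice. The summed level of the 8, as a linear ratio to the 75th percentile, was 509 in young mice and 570 in aged mice. Markers of other cells were also present, and several moved with age. All 7 macrophage and dendritic markers were lower on the aged array, 6 by 2-fold, with a summed level of 53.1 against 28.8, and all 6 fibroblast markers were lower, 4 by 2-fold, with 18.6 against 8.70. The 5 endothelial markers summed to 4.57 against 3.20. Of the T cell markers 4 of 5 were kept and summed to 10.4 against 12.4, and of the B cell markers 4 of 5 were kept and summed to 2.02 against 1.40. Acinar markers summed to 8569 against 11358, a sum carried by the brightest probes, and Smgc alone of the 8 passed 2-fold, being 3.45-fold lower in aged mice. Basal and myoepithelial markers summed to 67.4 against 75.4, but their median difference was -0.025, and of the 6 genes Cnn1 and Myh11 were lower by 4.39-fold and 3.55-fold and none was higher by 2-fold. Of the 5 proliferation markers, 3 were lower by 2-fold or more and the sum was 9.80 against 7.40. Muscle markers summed to 0.48 against 0.29 and neuronal markers to 38.1 against 38.6. The macrophage and dendritic, fibroblast, endothelial, B cell, muscle and proliferation sums were lower in aged mice. The epithelial, acinar, basal and myoepithelial, and T cell sums were higher, and the neuronal sums were nearly equal. All sums were taken with the 75th percentile. Equalising the spike-in controls lowered every difference by 0.25, so the direction of the smaller rises depends on the scaling. The part of these markers in the values of the splicing factor genes was not tested.

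The promoters of the members were rich in CpG. RefSeq windows on GRCm38.p6 matched 53 of the 63 genes, and the 100 bases before the start of the first listed window held a median of 10 CpG, against 3 over 27025 genes. The letters CCAAT, on either strand, were found in 17 of the 53 windows (32.1%, against 19.6% of all), CCGGAA in 9 (17.0%, against 7.48%), CACGTG in 4 (7.55%, against 3.18%) and TATAAA in 3 (5.66%, against 5.95%). The comparison covers all genes with a window, expressed in these cells or not, and expressed genes alone were not compared. No motif searched contains another, and a match describes letters and no bound factor. The windows of the 3 highest SR genes and of Mbnl1, the lowest member, are printed to show this range, with CpG in capitals.
Srsf2 (chr11:116853095-116853194, minus strand, GRCm38.p6): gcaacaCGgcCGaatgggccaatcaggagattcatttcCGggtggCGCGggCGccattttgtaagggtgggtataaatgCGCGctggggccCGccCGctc
Srsf3 (chr17:29032560-29032659, plus strand, GRCm38.p6): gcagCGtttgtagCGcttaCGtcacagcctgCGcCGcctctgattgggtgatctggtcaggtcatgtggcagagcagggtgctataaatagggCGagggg
Srsf6 (chr2:162931408-162931507, plus strand, GRCm38.p6): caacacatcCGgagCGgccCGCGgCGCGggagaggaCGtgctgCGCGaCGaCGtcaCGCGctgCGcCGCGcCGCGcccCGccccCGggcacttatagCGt
Mbnl1 (chr3:60472730-60472829, plus strand, GRCm38.p6): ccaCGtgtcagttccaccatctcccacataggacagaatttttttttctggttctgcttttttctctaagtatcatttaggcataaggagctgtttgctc
Srsf2 had 10 CpG in its window, which held every motif searched except CACGTG. Srsf3 had 6 CpG, and its window lacked CACGTG and also CCGGAA, while that of Srsf6 had 21 CpG and none of the 4 motifs. Mbnl1 had 1 CpG in its first listed window, with CACGTG as the only motif. The 3 windows with TATAAA belonged to Srsf2, Srsf3 and Sf3b3, whose differences were 0.52, 0.45 and 0.039.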

How the data were processed

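The authors prepared Cy3-labelled cRNA, hybridised it to Agilent 8 x 60K mouse arrays and made the scanner files with Feature Extraction 12.0.3.1. Per the file headers, the intensity used here is the processed signal, with the background subtracted and no scaling between arrays, beside an error and a mark for spots well above background. The authors' processed table holds the same signal divided by 1 constant per array (229 young, 176 aged), and was used as an alternative.

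From the deposited intensity, log2 of the signal over the 75th percentile of the non-control spots was taken. Outlier spots were left out, with none on a member probe. A probe was kept when at least 50% of its spots were marked well above background for 1 age or both. Where this held for 1 age only, the other age was set to its own signal or the lowest signal well above background there, whichever was higher. That lowest signal was 14.1 for young and 14.3 for aged mice. This gives a lower bound of the fold, or the measured fold where its own signal was the higher. Such marks were carried by 53.4% of probes for young mice and 48.5% for aged mice, and the number of arrays limits the precision.

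The genes named were members at 1.5-fold or more, all SR and Tra2 genes, Esrp1 and Esrp2, the 2 brightest of each group, members whose probes differed by over 1 (log2), the Rbfox, Celf, Mbnl and Ptbp families, and the 3 highest and lowest other splicing genes. Further hnRNP and SF3 genes were named after their values were seen. Members and lists were chosen with earlier results of these data known. The steps were tested on simulated data. Python 3.11.15 with numpy 2.4.6, pandas 2.3.3 and matplotlib 3.10.9, and R 4.3.3 with limma 3.58.1, were used. Alternatives were median centring, the 75th percentile over probes measured on both arrays, quantile normalisation, loess (span 0.7), spike-in controls, normexp (offset 50), other filters, the mean over probes, and the authors' table. Names and promoter windows came from RefSeq tables (GRCm38.p6), and coordinates of probes from the files (mm9).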

Additional observations from a re-analysis of the deposited data

How the results depend on the processing

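With 1 array per age the results are differences between 2 arrays, and no alternative adds a replicate. No paired analysis was possible because each age had 1 array and the labels give no replicate numbers. Setting the arrays level on 8 spike-in probes moved the medians by more than the software error, to -0.14 for all members, -0.025 for SR and Tra2 genes, -0.13 for hnRNP genes, -0.073 for SF3 and U2AF genes, -0.37 for the Esrp, Rbfox, Celf, Mbnl and Ptbp genes and -0.089 for the other splicing genes. This follows from its shift of all genes by -0.25. Without a filter on dim probes, 2 members passed 2-fold higher, Celf6 at 1.85 and Rbfox1 at 1.59, both from signals that were not well above background at either age. The other 83 recomputed medians and counts moved by less than the software error or kept their count. Many of these could hardly move. No outlier spot lay on a member probe, all 58 kept members were measured on both arrays, and the authors' table holds the same signal over a constant. Median centring shifted all medians by 0.17, below the software error of 0.20. These tallies therefore reflect the alternatives chosen and are no measure of robustness. Of the values of single genes and probes, 564 moved by less than their software error and 107 by more. A reversal was looked for only in values of 2-fold or more, which only the 3 probes of Celf2, Sf3b1 and Sf3a3 reached. None of these changed sign. For the Celf2 and Sf3a3 probes this was fixed in advance under the scalings. Only their young array was well above background, and such values are held at or below 0. Of the 58 members, 38 changed sign over the 7 scalings. Signal over background leaves 29 of the 161 member probes without a value on either array.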
